A study of Bos taurus with 29 samples.

Results

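Chronic digital dermatitis lesions (stage M4) were set against early lesions (stage M1) in punch biopsies of skin from Holstein-Friesian dairy cows and slaughtered cattle. The 10 libraries, 5 of M4 and 5 of M1, were chosen by the disease stage in the sample labels, out of 29 libraries in the series. Each M4 and M1 biopsy was of skin at the lesion. Control skin (M0, 5 libraries) came from above the cleft between the claws, so it differs from the lesions in site as well as in disease, and it is given only to show where a level in either stage stood. The 5 M4 biopsies and 3 of the 5 M1 biopsies belong to 22 lesion samples taken on 6 farms; the remaining 2 M1 biopsies and all M0 biopsies were postmortem. Which M1 libraries are the postmortem ones is not given, so their part in a difference between the stages cannot be told apart. No age, treatment, farm or animal is given for a sample, and nothing says that the replicates are separate animals. The p-values therefore measure the spread between these samples.

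Digital dermatitis is an infectious disease of the skin of the bovine foot in which the epidermis is eroded early and becomes thickened and horny in long-standing lesions. In healthy epidermis, basal keratinocytes make KRT5 and KRT14, and cells that leave the basal layer switch to KRT1, KRT10 and later KRT2. Near the surface they build the cornified envelope, a shell of proteins crosslinked by transglutaminases, and fill the space outside it with ceramides and other barrier lipids. Below lies a dermis of fibroblasts, collagen and vessels, into which neutrophils, macrophages, lymphocytes and plasma cells move during infection.

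RNA was measured by sequencing the 3′ ends of messenger RNA, in which a transcript gives reads near its poly(A) end only. The 10 libraries held 3378012 to 5037501 counts over the genes present in both stages' tables, and total counts did not separate the stages. Levels are given in CPM (counts scaled to a common library total), scaled by TMM, the trimmed mean of M-values. Genes listed in the table of 1 stage only are the exception, and their CPM is without TMM. TMM factors were 0.645 to 0.930 in M4 libraries and 0.837 to 1.13 in M1 libraries, which differed at an unadjusted p of 0.0317 and an adjusted p of 0.0952 over 6 library measures (two-sided exact permutation test). The share of counts taken by each library's most abundant gene averaged 10.5% in M4 libraries and 15.4% in M1 libraries (exact permutation p = 0.0159, adjusted p = 0.0952). That gene was KRT10 in M4 replicate 5 and ENSBTAG00000043570 in every other library. The part of the TMM factors or of this share in the differences below was not tested. Of 10730 genes present in both stages' tables, 8777 passed the filter on low counts and were tested, and their median log2 fold change was -0.02. The keratinocyte markers KRT5 and KRT14 were high in every lesion library. KRT5 ran from 11897 to 17336 CPM in M4 libraries and from 12319 to 19163 CPM in M1 libraries, with a log2 fold change of -0.22 ± 0.18 (SE).

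At an adjusted p under 0.05 (edgeR quasi-likelihood test, Benjamini-Hochberg adjustment), 27 genes rose in M4 over M1, which is 0.308% of the genes tested, and 20 fell, which is 0.228% (0.535% in either direction). By log2 fold change the largest rises were at KRT2, SPINK7 and SLURP1 and the largest falls at COMP, STC2 and SFRP4. The rises included 3 genes of the cornified envelope list (KRT2, SLURP1 and TGM5), and the falls included the endothelial gene PECAM1, the plasma cell gene JCHAIN and the growth factor gene FGF7. For 42 of the 47 called genes every M4 library lay on one side of every M1 library, as 2.46% of all genes tested did with M4 above and 2.15% with M4 below. Apart from COMP, called at an adjusted p of 0.0159, the adjusted p-values of the called genes lay between 0.046 and 0.0488 (edgeR). The counts moved with single libraries. Without M4 replicate 2, 344 genes were higher and 149 lower, and without M1 replicate 3, 299 were higher and 137 lower. Without any 1 of the other 8 libraries (M4 replicates 1, 3, 4 and 5 and M1 replicates 1, 2, 4 and 5), 0 to 1 genes were higher and 0 to 2 lower. When all 29 libraries shared one estimate of spread, 365 genes (3.52%) were higher and 180 (1.74%) lower. Of the main calls, 26 of the 27 rises and 19 of the 20 falls were among them. The remaining rise, SLURP1, was not tested in that fit, and the remaining fall, SERPINF1, was tested in it and not called. With M0 added to M4 and M1, 392 genes (3.94%) were higher and 192 (1.93%) lower. DESeq2 called 449 higher and 241 lower. Other settings gave fewer calls than the main comparison: 11 higher and 11 lower with no filter on low counts, 8 and 7 with a robust fit, 2 and 1 with the replicate number as a block, and 0 and 0 with limma-voom, where 1956 genes had an unadjusted p under 0.05. At an unadjusted p under 0.05 the main comparison held 1092 higher genes (12.4%) and 878 lower genes (10%).

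**Figure D1:**
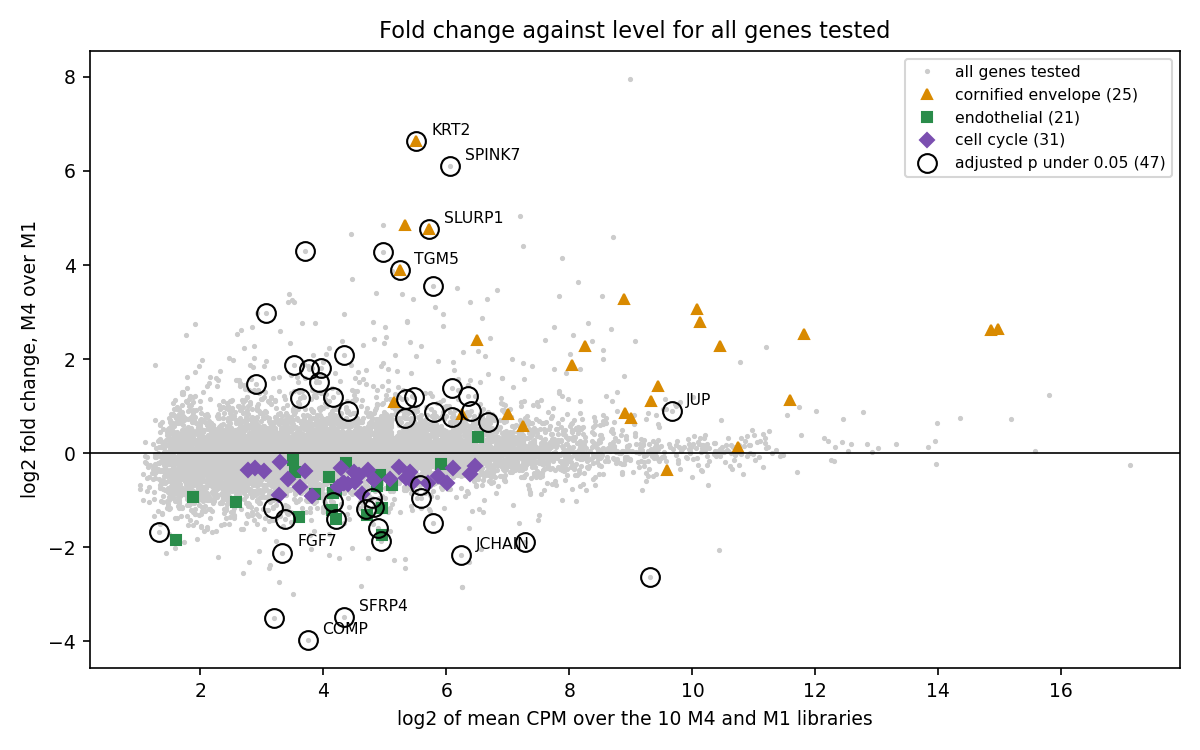
Log2 fold change of M4 over M1 (vertical axis) against the log2 of the mean CPM over the 10 M4 and M1 libraries (horizontal axis) for all 8777 genes tested. Triangles, squares and diamonds mark members of 3 gene lists, and open circles mark the 47 genes at an adjusted p under 0.05; cornified envelope genes lie above 0 except TGM3, and endothelial genes lie below 0 except AQP1.

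KRT2, the keratin of the uppermost living epidermal layers, had the largest rise among the called genes. It stood at 180, 12.7, 22.8, 17.1 and 219 CPM in the M4 libraries, against 0, 0, 3.02, 1.85 and 0 CPM in the M1 libraries. All M4 libraries were above all M1 libraries, and 3 M1 libraries had no count of it. The log2 fold change was 6.63 ± 1.15 (SE; adjusted p = 0.046, edgeR), and M0 skin averaged 22.2 CPM. TGM5, a transglutaminase of the cornified envelope, had 86.7, 10.3, 71.6, 48.5 and 136 CPM in M4 and 6.58, 0.606, 11.3, 5.56 and 0.586 CPM in M1. M4 replicate 2 fell just under M1 replicate 3, and the other libraries did not overlap. Its log2 fold change was 3.88 ± 0.74 (adjusted p = 0.0488, edgeR), with a mean of 176 CPM in M0.

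SLURP1, a small protein secreted by granular keratinocytes whose loss in humans thickens the skin of palms and soles, had 196, 7.07, 151, 61.8 and 92.9 CPM in M4 and 2.63, 1.01, 14.1, 1.24 and 0 CPM in M1. The same pair of libraries, M4 replicate 2 and M1 replicate 3, overlapped. The rise was 4.77 ± 0.95 on the log2 scale (adjusted p = 0.0488, edgeR), and M0 skin averaged 1.33 CPM. SPINK7, a serine protease inhibitor, showed 195, 3.24, 141, 10.5 and 309 CPM in M4, against 0.263, 1.41, 7.3, 0.618 and 0 CPM in M1. Levels within M4 were uneven, with replicates 2 and 4 far below the others, and the log2 fold change was 6.10 ± 1.22 (adjusted p = 0.0488, edgeR). SERPINB13, a serpin of stratified epithelium that inhibits lysosomal cathepsins, had 40.2, 18.9, 45.3, 26.5 and 32.6 CPM in M4 and 7.37, 4.84, 13.9, 8.96 and 3.91 CPM in M1. These did not overlap, and the log2 fold change was 2.08 ± 0.34 (adjusted p = 0.046, edgeR).

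C7H5orf46 rose by a log2 fold change of 4.27 ± 0.78, with 8.54 to 106 CPM in M4 and 0 to 7.81 CPM in M1, and M0 skin held 94 to 124 CPM. Of the genes without a symbol, named after their values were seen, ENSBTAG00000030920, which the tables describe as a fatty acid desaturase 2-like protein, rose by 4.29 ± 0.71 and ENSBTAG00000024437 by 3.56 ± 0.71. Smaller rises came at genes used in many cell types. POLR2A, the largest subunit of RNA polymerase II, had 90.7 to 133 CPM in M4 and 48.6 to 66.3 CPM in M1 (log2 fold change 0.90 ± 0.14). HERC3, a ubiquitin ligase of the HECT family, had 87.8 to 135 CPM in M4 and 35.1 to 61.6 CPM in M1 (1.22 ± 0.18). RAB32, a small GTPase of vesicle traffic, had 15.6 to 29.7 CPM in M4 and 9.49 to 12.7 CPM in M1 (1.2 ± 0.19). The palmitoyl transferase gene ZDHHC5 had 42.7 to 53.5 CPM in M4 and 25 to 33.8 CPM in M1 (0.75 ± 0.13). GGT6, of the gamma-glutamyltransferase family, rose by 1.21 ± 0.21, YPEL3 by 1.39 ± 0.26, AKTIP by 1.16 ± 0.23 and MAPK3, which encodes the kinase ERK1, by 0.91 ± 0.18 on the same scale. Each of these 8 genes was higher in 5 of 5 M4 libraries than in any M1 library.

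The other 11 rises with a symbol, named after their values were seen, were between 0.67 ± 0.12 for ANKRD13A and 2.99 ± 0.59 for SLC44A3 on the log2 scale. They include JUP, which encodes plakoglobin of desmosomes and adherens junctions. JUP had 1306, 875, 1077, 1087 and 913 CPM in M4 and 578, 562, 723, 581 and 390 CPM in M1, with no overlap and a log2 fold change of 0.89 ± 0.18 (adjusted p = 0.0488, edgeR). SHROOM3, an actin-binding protein that shapes epithelial cells, rose by 1.88 ± 0.37, and the atypical cadherin CELSR2 by 0.88 ± 0.16. The rest were CITED4, PLD3, TTLL7, APTX, PAQR3, FILIP1L, ANKRD13A and SLC44A3.

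**Figure D2:**
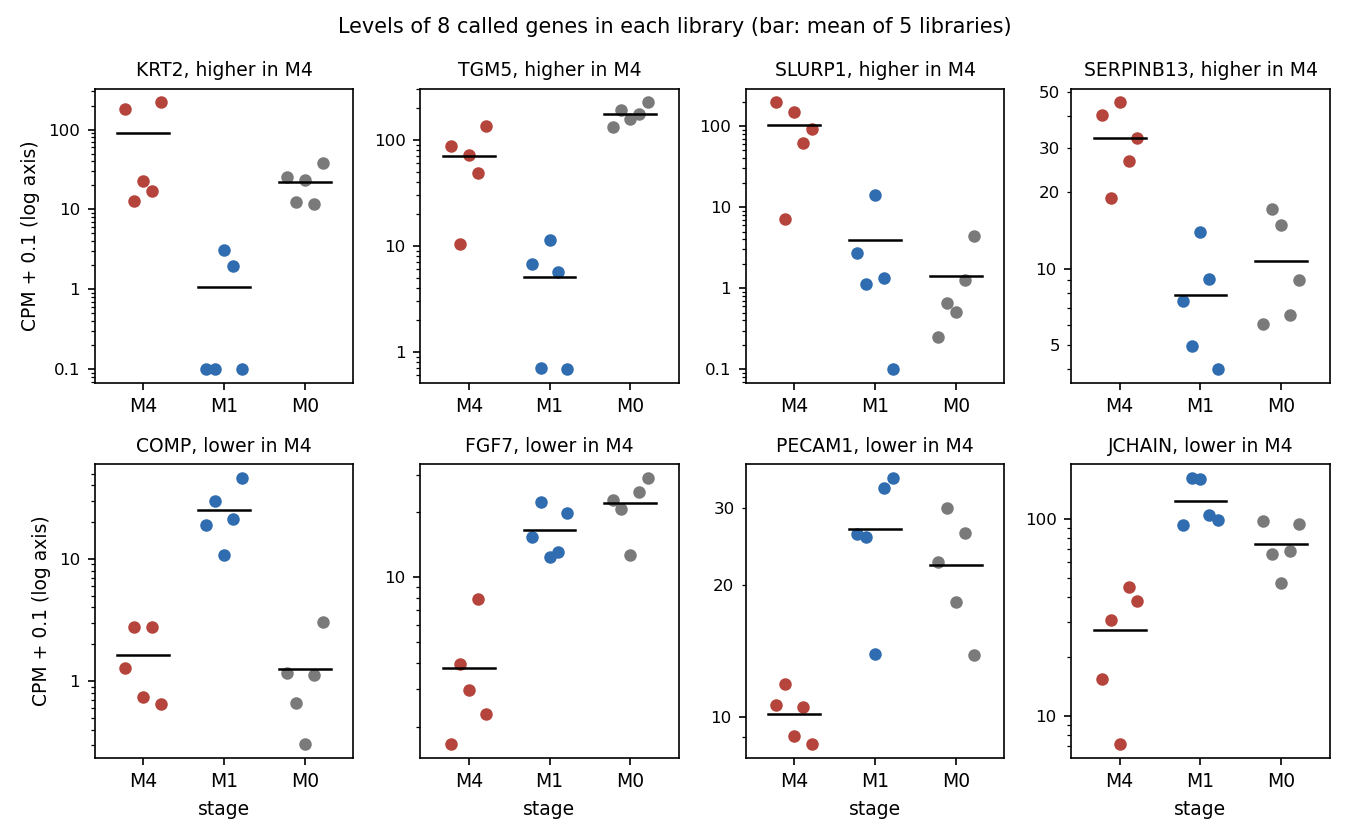
CPM plus 0.1 on a logarithmic axis for 8 called genes in each M4, M1 and M0 library (points), with the mean of 5 libraries as a bar. KRT2, TGM5, SLURP1 and SERPINB13 are higher in M4 than in M1, and COMP, FGF7, PECAM1 and JCHAIN are lower in every M4 library than in any M1 library.

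Genes of the cornified envelope held 3 of the rises and had the highest median of the gene lists. Of 38 symbols in the list, 27 were in both tables and 25 were tested; 3 rose (KRT2, SLURP1 and TGM5), none fell, and 24 of 25 had a positive log2 fold change. The median was 2.28, against -0.02 over all genes tested. At an unadjusted p under 0.05, 18 of the 25 were higher, where 12.4% of all genes tested were. The number called rested on single libraries. It was 11 without M4 replicate 2, where 344 of all 9076 genes tested were called higher. Without M1 replicate 3 it was 12, where 299 of all 8904 genes tested were called higher. Without any 1 of the other 8 libraries it was 0. The median of the list stayed between 1.97 and 2.89 over all alternatives. In the fit of all 29 libraries, where 3.52% of all genes were called higher, 8 of 26 members were: KRT2, TGM5, CASP14, DMKN, DSG1, KLK5, LYPD3 and SBSN. SLURP1 was not tested in that fit. In bulk tissue, fewer cells of a type and less RNA per cell cannot be told apart.

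Summed over the list, M4 libraries held 241500, 49710, 82010, 82620 and 199700 CPM, against 16850, 9405, 62160, 35590 and 5342 CPM in M1. M4 replicate 2 was the lowest M4 library and M1 replicate 3 the highest M1 library, and these 2 were the pair that overlapped. M0 skin, at 28960 to 47440 CPM, was below every M4 library and within the range of M1. In M4 most of the sum came from KRT1 and KRT10, the paired keratins of differentiating keratinocytes. KRT10 had 104349, 21750, 32049, 30074 and 88192 CPM in M4 and 4454, 911, 25668, 12998 and 579 CPM in M1. Its log2 fold change of 2.63 ± 0.89 did not pass the threshold (adjusted p = 0.117, edgeR). M1 libraries spread widely, and M4 replicate 2 lay under M1 replicate 3. KRT1 gave 2.61 ± 0.90 (adjusted p = 0.121, edgeR).

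CASP14, a caspase of cornifying cells that in humans and mice takes part in filaggrin processing, stood at 13287, 1749, 4771, 4424 and 6560 CPM in M4, against 526, 758, 2347, 1304 and 401 CPM in M1. The stages overlapped only through M4 replicate 2 and M1 replicate 3. Its log2 fold change was 2.53 ± 0.56, outside the threshold between the 2 stages (adjusted p = 0.0537) and inside it in the fit of all 29 libraries (adjusted p = 0.0452, both edgeR). KLK5 and KLK7, kallikrein proteases that cut the junctions of cornified cells, had log2 fold changes of 4.85 ± 1.21 and 3.06 ± 0.93, and SPINK5, the inhibitor of these proteases, 2.78 ± 0.98, none of them called. KLK5 was at 0 in M4 replicate 2 and at 227 CPM in M4 replicate 5, against 0 to 8.82 CPM in M1. DSG1, a desmosomal cadherin of the upper epidermis, had 2414 to 6646 CPM in M4 and 995 to 2869 CPM in M1. The members with the smallest differences were KRTDAP, at 0.14 ± 0.19, and TGM3, at -0.36 ± 0.40, which ran from 367 to 1084 CPM in M4 and from 241 to 1254 CPM in M1. LOR, which encodes loricrin, and PPL did not pass the filter on low counts.

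Genes that make barrier lipids had no call between the 2 stages. All 15 members tested had a positive log2 fold change, with a median of 1.35, and 10 of them were higher at an unadjusted p under 0.05, where 12.4% of all genes tested were. In the fit of all 29 libraries 4 of 17 were called higher, against 3.52% of all genes in it. These were ALOXE3, a lipoxygenase acting on the lipids of the cornified envelope, CERS3, which makes very long chain ceramides, SPTLC3, a subunit of serine palmitoyltransferase, and UGCG, a glucosylceramide synthase. ALOXE3 had 30.8, 4.71, 40.1, 7.12 and 44.2 CPM in M4 and 7.63, 4.04, 4.53, 1.24 and 1.17 CPM in M1. M4 replicates 1, 3 and 5 were above every M1 library, and replicates 2 and 4 were within the range of M1. The log2 fold change was 2.76 ± 0.65 (adjusted p = 0.0592, edgeR). ALOX12B, its partner enzyme, gave 3.12 ± 0.86, with 139, 11.8, 143, 11.3 and 198 CPM in M4 and 2.1, 9.49, 34.3, 7.11 and 4.89 CPM in M1. Summed barrier lipid genes reached 343 to 1340 CPM in M4 and 164 to 622 CPM in M1, both below M0 skin at 2464 to 3609 CPM.

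Genes of basal keratinocytes had no call. Among 13 tested, none was called, 4 had a positive log2 fold change, and the median was -0.12. The largest differences were at KRT14, at 0.74 ± 0.26, and at the integrin subunit gene ITGB1, at -0.77 ± 0.25. KRT14 was the 1 of 14 members called higher in the fit of all 29 libraries (adjusted p = 0.0465, edgeR). In that fit 3.52% of all genes were called higher.

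Keratinocyte genes linked to wounding and hyperproliferation were far above M0 skin in both stages, with summed levels of 102000 to 230500 CPM in M4, 43730 to 122900 CPM in M1 and 2321 to 4336 CPM in M0. Of 22 tested, none was called between M4 and M1, 18 had a positive log2 fold change, and the median was 0.69. At an unadjusted p under 0.05 (edgeR), 11 were higher and 1 lower, where 12.4% and 10% of all genes tested were. KRT6B, a keratin induced in injured epidermis, had 142669, 64082, 73234, 69806 and 51145 CPM in M4 and 35952, 23710, 64515, 31643 and 13706 CPM in M1, and M0 skin averaged 156 CPM. The stages overlapped only at M4 replicates 2 and 5 and M1 replicate 3, and the log2 fold change was 1.24 ± 0.40 (adjusted p = 0.102, edgeR). KRT6A gave 0.72 ± 0.26, and since KRT6A and KRT6B are close relatives, how their shared reads were assigned is uncertain. In the fit of all 29 libraries, where 3.52% of all genes were called higher, 5 of 22 members were. These were KRT17, the gap junction gene GJB6, IL20RB and the kallikreins KLK8 and KLK14. GJB6 had 757 to 1192 CPM in M4 and 269 to 785 CPM in M1, with a log2 fold change of 0.95 ± 0.26. ARG1, the arginase of the urea cycle, which M0 skin held at a mean of 1.09 CPM, had 1369, 156, 903, 322 and 764 CPM in M4 and 53.7, 46.8, 382, 67.1 and 13.7 CPM in M1. All M4 libraries but replicates 2 and 4 were above every M1 library (2.64 ± 0.80; adjusted p = 0.0919, edgeR). S100A2, at -0.41 ± 0.38, and PTHLH, at -1.04 ± 0.48, pointed the other way.

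Antimicrobial genes showed a median log2 fold change of 0.81 over 12 tested members, 9 of them positive and none called. LYZ1, a lysozyme, was the member whose stages did not overlap, with 256, 224, 637, 248 and 488 CPM in M4 and 60.2, 1.41, 133, 93 and 2.74 CPM in M1 (2.68 ± 0.88; adjusted p = 0.108, edgeR). S100A7 had 109, 25.9, 726, 197 and 2958 CPM in M4 and 25.3, 20.6, 96, 23.8 and 1.56 CPM in M1, against a mean of 3725 CPM in M0 (4.59 ± 1.22; adjusted p = 0.0744, edgeR). The bovine beta-defensin genes TAP and LAP gave 1.04 ± 0.99 and 2.0 ± 0.81. The calprotectin genes S100A8 and S100A9 gave 0.64 ± 0.33 and 0.98 ± 0.35.

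Among the genes that fell, COMP had the strongest call. It encodes cartilage oligomeric matrix protein, a glycoprotein made by fibroblasts and chondrocytes that binds collagen. COMP had 1.17, 2.65, 0.642, 2.67 and 0.553 CPM in M4, against 18.9, 29.7, 10.6, 21 and 46.1 CPM in M1. Every M1 library was above every M4 library, and M4 lay at the level of M0 skin, which averaged 1.16 CPM. The log2 fold change was -3.96 ± 0.48 (adjusted p = 0.0159, edgeR). It lay between -4.30 and -3.63 over the 20 alternatives and missed the threshold in 5 of them. SFRP4, a secreted antagonist of Wnt signalling, had 0.39, 5.6, 2.89, 1.78 and 5.53 CPM in M4 and 46.6, 38.6, 3.78, 43 and 54.2 CPM in M1. M1 replicate 3 lay within the M4 range, and the other 4 M1 libraries were far above it (-3.48 ± 0.62; adjusted p = 0.046, edgeR).

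IGFBP4, which binds insulin-like growth factors, fell by 1.89 ± 0.33 on the log2 scale (adjusted p = 0.046, edgeR). Its levels were 31.6, 96.3, 61, 97.4 and 42.6 CPM in M4 and 220, 322, 141, 191 and 351 CPM in M1, with no overlap. TGM2, the transglutaminase of connective tissue and vessels, had 4.69, 16.5, 8.67, 22 and 13 CPM in M4 and 76.3, 40.2, 26.9, 38.3 and 58.5 CPM in M1. It fell by 1.86 ± 0.37 (adjusted p = 0.0488, edgeR), in the opposite direction to its epidermal relative TGM5. VCAN, the large proteoglycan versican, had 4.69 to 24.2 CPM in M4 and 31.2 to 56.8 CPM in M1 (-1.59 ± 0.32). SERPINF1, pigment epithelium-derived factor, had 18 to 37.3 CPM in M4 and 40.8 to 112 CPM in M1 (-1.48 ± 0.26). COL15A1, a collagen of basement membrane zones, had 14.4 to 22.1 CPM in M4 and 28.4 to 43.2 CPM in M1 (-0.96 ± 0.17). In each of these 3 genes the M4 libraries lay wholly below the M1 libraries.

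The other named falls were at genes outside the matrix. MAN1A1, a mannosidase of the Golgi, fell by 1.14 ± 0.19, the mitochondrial peroxidase PRDX3 by 1.17 ± 0.23, the sulfide oxidase SQOR by 0.95 ± 0.17 and the splicing factor SRSF4 by 0.67 ± 0.13 on the log2 scale. SQOR stood at 25 to 45.1 CPM in M4 and 54.9 to 74.3 CPM in M1, both above M0 skin at 9.89 to 13.7 CPM. Named after their values were seen, STC2, NOC3L, ELMO2, MIS12 and MRPL12 also fell, as did ENSBTAG00000050723, for which no name was found. STC2, the secreted glycoprotein stanniocalcin 2, had the largest of these, at -3.51 ± 0.69, with 0 to 3.85 CPM in M4 and 5 to 34.3 CPM in M1.

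The fibrillar collagens of the dermis had no call. Of 27 tested genes of the fibrillar matrix, none was called and the median log2 fold change was -0.38, with 3 of 27 positive. At an unadjusted p under 0.05 (edgeR), 9 were lower, where 10% of all genes tested were. In 2 members every M4 library lay below every M1 library, as in 2.15% of all genes tested. COL1A1 had 525 to 1375 CPM in M4 and 924 to 1689 CPM in M1 (-0.24 ± 0.24). COL3A1 had 511 to 1086 CPM in M4 and 689 to 1202 CPM in M1 (-0.03 ± 0.21). The members with the smallest p were SERPINH1, the collagen chaperone (-0.83 ± 0.20), FBLN1 (-0.94 ± 0.25) and P4HA1, a collagen prolyl hydroxylase (-0.73 ± 0.21), each outside the threshold at adjusted p-values of 0.0592 to 0.0818 (edgeR).

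Proteases of matrix turnover and their inhibitors pointed downward in M4 throughout. All 16 tested members had a negative log2 fold change, with a median of -0.88, and 10 were lower at an unadjusted p under 0.05, where 10% of all genes tested were. None was called between the 2 stages. MMP3, stromelysin 1, had 0, 5.89, 5.46, 11.8 and 6.08 CPM in M4 and 127, 15.7, 2.01, 2.47 and 68.4 CPM in M1, and M1 replicates 1, 2 and 5 were above every M4 library (-2.82 ± 0.99; adjusted p = 0.125, edgeR). PLAUR, the receptor of urokinase, gave -1.23 ± 0.43 and MMP9, a gelatinase of neutrophils and other cells, -0.85 ± 0.57.

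FGF7, keratinocyte growth factor, is made by dermal cells and acts on a receptor of epithelial cells. It had 1.56, 3.83, 2.89, 7.78 and 2.21 CPM in M4, against 15.3, 22.2, 12.3, 13 and 19.7 CPM in M1, with no overlap, while M0 skin averaged 21.9 CPM. It fell by 2.11 ± 0.36 on the log2 scale (adjusted p = 0.046, edgeR) and was the 1 call among 17 tested growth factor genes, whose median was -0.15. FGF10, which acts on the same receptor, did not pass the filter between the 2 stages. It stood at 0.277 to 1.28 CPM in M4 and 1.32 to 7.73 CPM in M1 and was called lower in the fit of all 29 libraries (-2.64 ± 0.73; adjusted p = 0.0388, edgeR). FGF2, a further fibroblast growth factor, had 5.14 to 12.5 CPM in M4 and 12.5 to 32.6 CPM in M1. It was called lower in that fit too (-1.16 ± 0.27, adjusted p = 0.0255, edgeR). In that fit 3 of 23 growth factor genes were called lower, against 1.74% of all genes. The transforming growth factor gene TGFB2, at 0.63 ± 0.27, and the epidermal growth factor family member EREG, at 1.14 ± 0.55, pointed upward without a call.

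Endothelial genes had values below M1 for all but 1 member, with 1 call. PECAM1, an adhesion molecule at the junctions of endothelial cells, had 10.5, 11.8, 8.99, 10.5 and 8.57 CPM in M4, against 26, 25.6, 13.9, 33.1 and 35 CPM in M1. The groups did not overlap, M1 replicate 3 lay nearest to M4, and M0 skin averaged 22.1 CPM. PECAM1 fell by 1.41 ± 0.24 on the log2 scale (adjusted p = 0.046, edgeR) and was the 1 call among 21 tested. Of these 21, 20 had a negative log2 fold change, the median was -0.84, and 14 were lower at an unadjusted p under 0.05, where 10% of all genes tested were. In the fit of all 29 libraries, where 1.74% of all genes were called lower, 6 of 22 were: PECAM1, SELP, EMCN, ESAM, SOX17 and MMRN1. The leukocyte adhesion molecules of activated vessels pointed the same way. VCAM1 had 14.1 to 26.9 CPM in M4 and 21.2 to 52 CPM in M1 (-1.15 ± 0.25; adjusted p = 0.0537, edgeR), and SELE, E-selectin, gave -1.32 ± 0.36. SELP, P-selectin, had 6.25, 19.4, 9.63, 23.1 and 11.6 CPM in M4 and 61.3, 15.5, 12.1, 59 and 90.3 CPM in M1, where replicates 1, 4 and 5 were far above the others. AQP1, the water channel of vessels and other cells, was the member with a positive value, at 0.34 ± 0.22. Summed over the list, M4 libraries held 371 to 447 CPM and M1 libraries 375.5 to 797 CPM, and M1 replicate 3 was the one M1 library within the M4 range.

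JCHAIN, the joining chain of secreted IgA and IgM made by plasma cells, fell by 2.17 ± 0.39 on the log2 scale (adjusted p = 0.046, edgeR). It had 15.2, 30.6, 7.06, 44.7 and 38.2 CPM in M4, against 92.9, 161, 159, 104 and 98.7 CPM in M1, with no overlap and with M0 skin at a mean of 74.4 CPM. Of 20 symbols in the list of B cells and plasma cells, 4 were in both tables and 3 were tested. Summed over the list, the stages overlapped, with 127 to 296 CPM in M4 libraries and 167 to 301 CPM in M1 libraries. IRF4, a transcription factor of plasma cells and other lymphocytes, had 0.781 to 4.42 CPM in M4 and 4.74 to 10.1 CPM in M1 and was not called (-1.57 ± 0.42; adjusted p = 0.0746, edgeR). PRDM1, which plasma cells and differentiating keratinocytes both express, gave 1.0 ± 0.32 and was called higher in the fit of all 29 libraries.

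**Figure D3:**
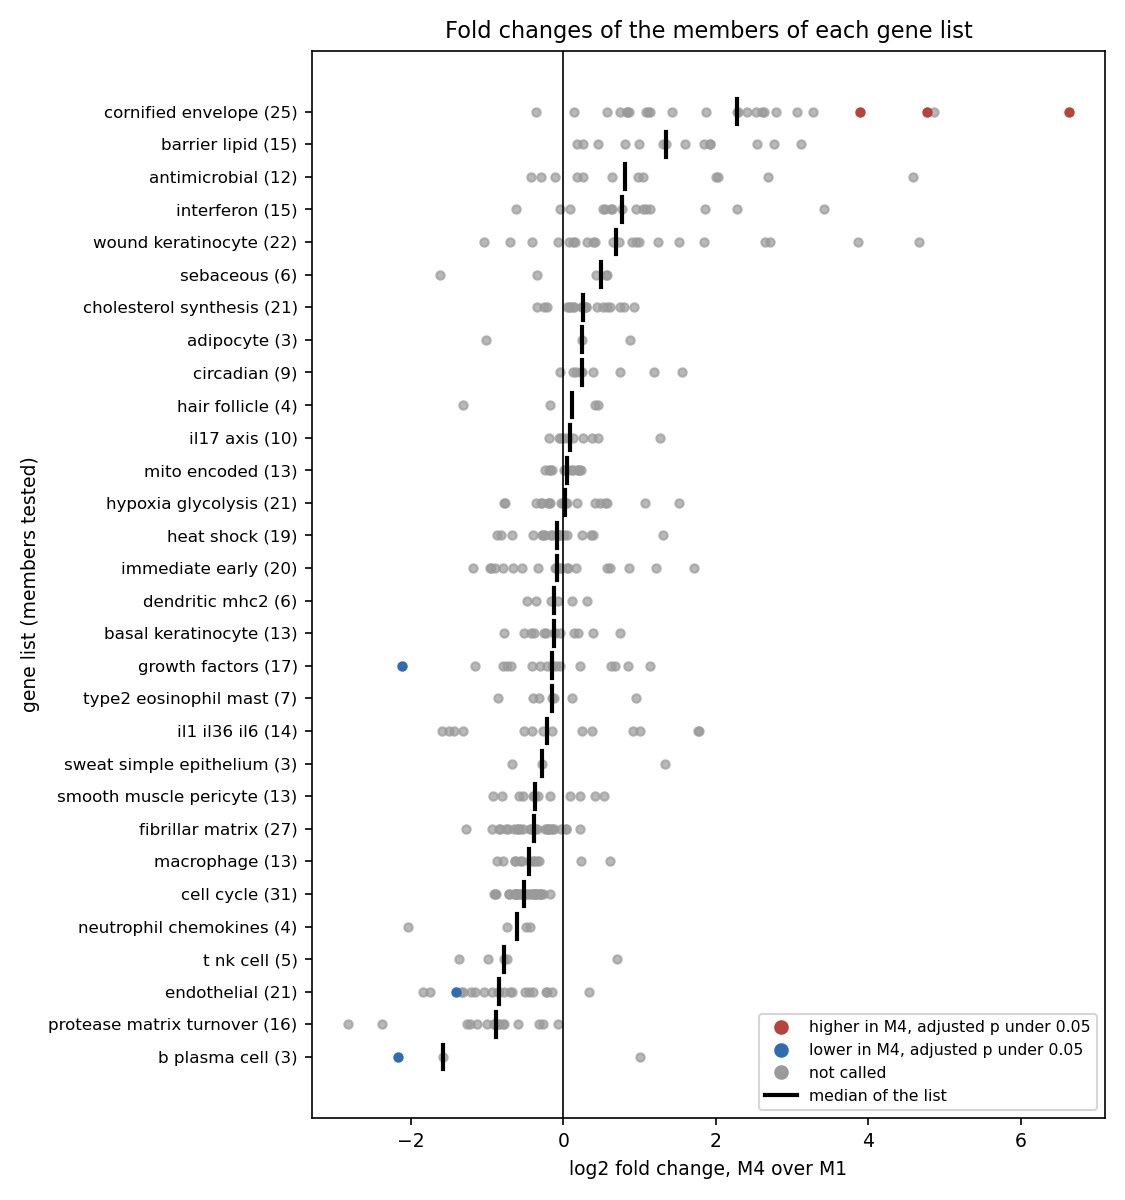
Log2 fold change of M4 over M1 for each tested member of the gene lists with at least 3 tested members (points), with the median of each list as a bar and called members in colour. Medians run from 2.28 for the cornified envelope to -1.57 for B cells and plasma cells, where only 3 genes were tested, and the IL-17 list lies at 0.09.

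Inflammatory genes had no call. None of the 14 tested genes of the IL-1, IL-36 and IL-6 families and their partners was called, and the median log2 fold change was -0.21. IL1B had 2.73, 94.8, 4.17, 95.4 and 6.64 CPM in M4 and 304, 20.8, 47.6, 17 and 229 CPM in M1. M4 replicates 2 and 4 were as high as middle M1 libraries and the other 3 M4 libraries were below all of M1, and the log2 fold change was -1.58 ± 1.01 (adjusted p = 0.372, edgeR). PTGS2, the inducible cyclooxygenase, was also highest within M4 in replicates 2 and 4, with 18.7, 201, 40.8, 246 and 15.2 CPM in M4. It had 287, 437, 258, 40.5 and 281 CPM in M1, so M4 replicate 3 was just above M1 replicate 4. The epidermal cytokine IL36G and its antagonist IL36RN pointed upward, at 1.76 ± 0.74 and 1.78 ± 0.66, and the alarmin IL33 downward, at -1.43 ± 0.64.

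The neutrophil-attracting chemokines showed the same division within M4. CXCL8, the main one, had 1.95, 73.9, 8.35, 87.6 and 12.7 CPM in M4 and 190, 71, 121, 6.18 and 377 CPM in M1, against a mean of 0.377 CPM in M0 (-2.04 ± 0.93; adjusted p = 0.219, edgeR). Summed over the 4 tested members (CXCL8, CXCL2, CXCL3 and GRO1), M4 libraries held 53.5, 531, 88, 657 and 72.7 CPM and M1 libraries 742, 330, 728, 133.5 and 600 CPM. M4 replicates 2 and 4 lay within the range of M1 and the other 3 M4 libraries below it, and all 10 libraries were above M0 skin, at 11.9 to 21.3 CPM. Of 19 neutrophil symbols, 3 were in both tables, and their sum was 1.95 to 18.9 CPM in M4 and 9.32 to 71.4 CPM in M1. Only 1 of the 3 was tested between the stages, with a log2 fold change of -2.17 and no call. It was lower at an unadjusted p under 0.05 (edgeR), where 10% of all genes tested were. In the fit of all 29 libraries, 1 of the 3 was called lower, against 1.74% of all genes. PADI4, an enzyme of neutrophil granules, was at 0 in M4 replicate 1 alone.

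Of the IL-17 list, 11 of 25 symbols were in both tables and 10 were tested, none was called, and the median was 0.09. IL17RA, the shared receptor chain, had 28.5 to 41.1 CPM in M4 and 33.9 to 40 CPM in M1 (-0.03 ± 0.13). TRAF3IP2, the adaptor ACT1 of the receptor, gave 0.46 ± 0.17, and the IL-22 receptor subunit IL22RA1, expressed by keratinocytes, 1.27 ± 0.47. NFKBIZ and ZC3H12A, a target and a brake of the pathway, gave 0.12 ± 0.28 and -0.18 ± 0.32. The chemokine CCL20 had 24.6, 96, 87.6, 178 and 14.4 CPM in M4 and 43.1, 25.8, 55.9, 258 and 18.2 CPM in M1, with a log2 fold change of 0.01 ± 0.74.

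IL17F itself could not be tested, because it is listed for M1 and not for M4. In the M1 table, without the TMM factor, it had 6.61, 0.648, 2.32, 6.81 and 1.98 CPM in M1 libraries and a mean of 0.447 CPM in M0. The authors' deposited table gives it an adjusted p of 0.0072 for M1 over M0. The listed genes all exceed 1 CPM in at least 5 of the 10 libraries of their table. If each table lists every gene that does, IL17F exceeded 1 CPM in at most 3 of the 5 M4 libraries. This reading is inexact near the limit, since 3 of the 428 genes listed for 1 stage only exceeded 1 CPM in all 5 M0 libraries. No count of IL17F in M4 was used here, and no fold change between the stages is given.

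**Figure D4:**
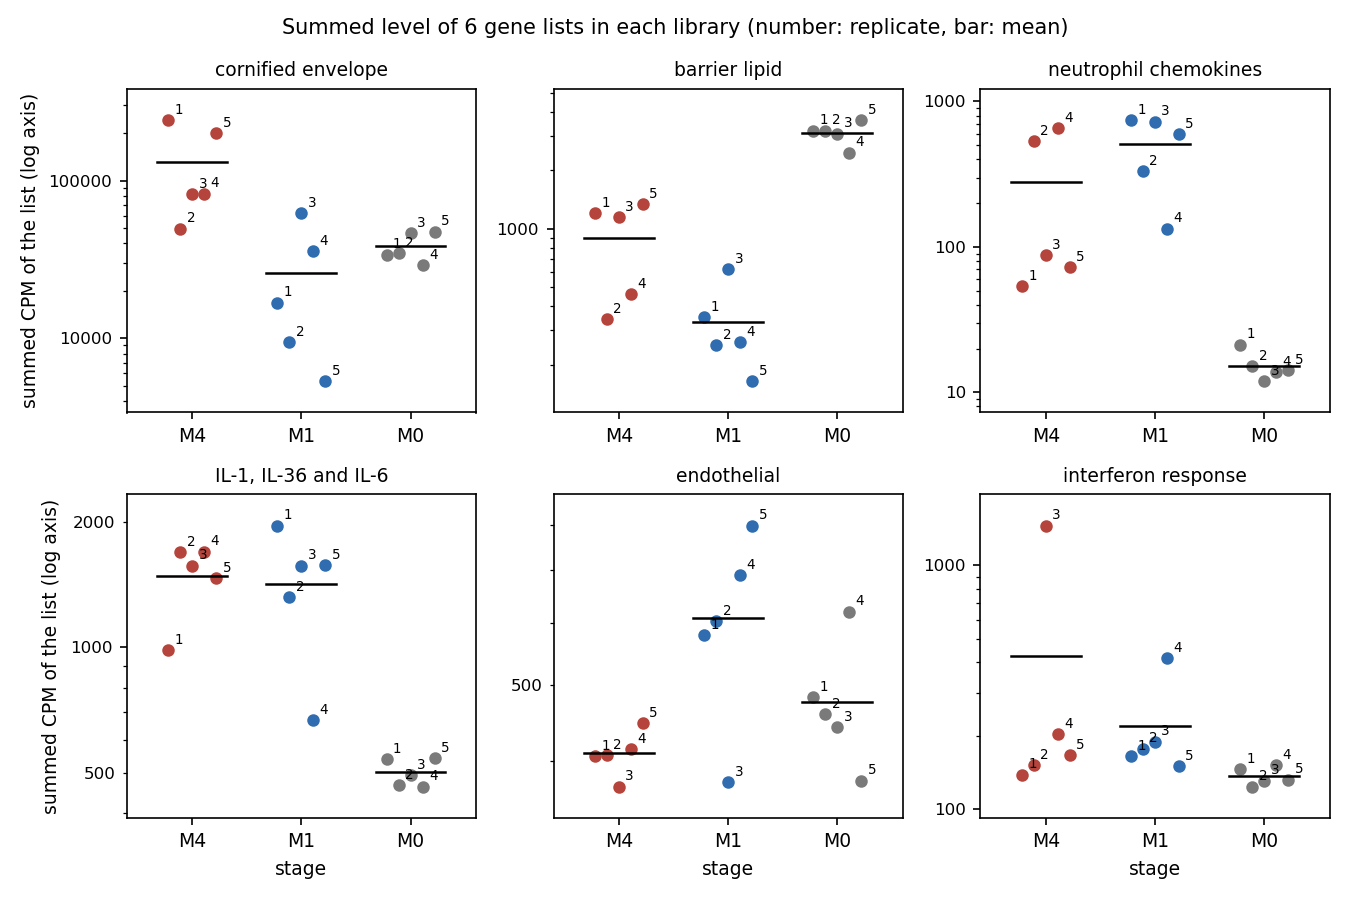
Summed CPM of 6 gene lists in each library on a logarithmic axis, with M4, M1 and M0 from left to right, replicate numbers beside the points and the mean as a bar. M4 replicates 2 and 4 lie with M1 libraries for neutrophil chemokines, M1 replicate 3 lies with M4 libraries for endothelial genes, and M4 replicate 3 stands alone for interferon response genes.

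Cell cycle genes had small negative differences and no call. All 31 tested members had a negative log2 fold change, between -0.91 and -0.18, with a median of -0.52; none was called, and 9 were lower at an unadjusted p under 0.05, against 10% of all genes tested. BUB1B, a spindle checkpoint kinase, had 12.1, 16.8, 17, 20 and 13.6 CPM in M4 and 25, 26.4, 17.1, 22.6 and 31.9 CPM in M1 (-0.63 ± 0.20; adjusted p = 0.098, edgeR). TOP2A, the topoisomerase of dividing cells, had 28.1 to 74.2 CPM in M4 and 43.6 to 105 CPM in M1 (-0.63 ± 0.26). The summed level was 468 to 1101 CPM in M4 and 772 to 1486 CPM in M1, and M0 skin lay at 317 to 584 CPM.

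The median of the interferon response genes rested on 1 library. Of 15 tested none was called, 13 had a positive log2 fold change, and the median was 0.77, but it was -0.27 without M4 replicate 3. ISG15, a ubiquitin-like protein induced by interferon, had 1.95, 1.18, 234, 11.1 and 14.1 CPM in M4 and 1.05, 1.21, 8.82, 14.2 and 0.586 CPM in M1. Outside M4 replicate 3 both stages covered the same range.

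Among the other lists, macrophage genes had a median of -0.45 over 13 tested and summed to 230 to 383 CPM in M4 and 199 to 484 CPM in M1. T and NK cell genes had a median of -0.78 over 5 tested of 26 symbols and summed to 17.7 to 34.8 CPM in M4 and 27.8 to 63.1 CPM in M1. Of these, IL2RG, the shared chain of several cytokine receptors, had 0.642 to 5.89 CPM in M4 and 7.05 to 10.8 CPM in M1 (-1.37 ± 0.40; adjusted p = 0.0865, edgeR). IL2RG was called lower in the fit of all 29 libraries (adjusted p = 0.0441, edgeR), and neither list had a call between the 2 stages. Genes of hair follicles and of glands were low in both stages beside M0 skin. The follicle list summed to 20.9 to 134 CPM in M4 and 21.5 to 256.5 CPM in M1, against 6701 to 11890 CPM in M0. The sweat gland list summed to 24.5 to 44.1 CPM in M4 and 27 to 51 CPM in M1, against 728 to 3545 CPM in M0, and the sebaceous list to 1555 to 1806 CPM in M4 and 989 to 1586 CPM in M1, against 7126 to 9891 CPM in M0. No erythrocyte symbol was in both tables, and no skeletal muscle or melanocyte gene passed the filter. Of 12 adipocyte symbols 7 were in both tables, and their sum was carried by FABP4, a fatty acid binding protein, at 5757 to 12352 CPM in M4, 2110 to 9988 CPM in M1 and a mean of 196 CPM in M0. The part of these cell types in the differences above was not tested.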

How the data were processed

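Skin biopsies were profiled with a 3′ messenger RNA kit (QuantSeq). The submitters' processing notes name the cattle build ARS-UCD1.2, RSEM 1.3.1, STAR, edgeR, cutadapt 2.8 and FastQC 0.11.7, and do not say whether RSEM values were rounded. The deposited tables, one per lesion stage beside M0, hold whole-number counts per gene and library. They also hold the authors' normalized signal, which was used only to check the listing limit, and the authors' p-values against M0.

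The M1 and M4 tables, with 11055 and 10833 genes, were joined on the gene identifier, leaving 10730 genes. A gene listed for 1 stage only has no count in the other and was not tested. TMM factors were computed over the 15 M4, M1 and M0 libraries, and CPM is a count over library total times TMM factor. For genes listed for 1 stage only, CPM is a count over the library total of that stage's table, without the TMM factor. The 10 M4 and M1 libraries were then fitted with edgeR 4.0.16 (R 4.3.3; filterByExpr, quasi-likelihood test, Benjamini-Hochberg adjustment over 8777 genes, threshold 0.05), without covariates. The standard error is the absolute log2 fold change over the square root of F. The fit was tested on simulated data. Alternatives were 2 other scalings, 2 other filters, fits with M0 or with all 29 libraries, a replicate block, a robust fit, limma-voom (limma 3.58.1), DESeq2 1.42.0, and leaving out each library. Figures were drawn with matplotlib 3.10.9 under Python 3.11.15, with pandas 2.3.3.

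Named genes have a symbol and are the 12 greatest fold changes each way, of called genes whose mean exceeds the median of the tested genes, the 10 called genes of smallest p, up to 3 called members of each of 35 gene lists, and IL17F. Other genes were named after their values were seen. The comparison, its gene lists and its tests were chosen with earlier results of these data known. Among tested genes 370 had no symbol, 12 symbols were borne by more than 1 gene, and 19 genes had counts identical to another gene's. Libraries held 3378012 to 5037501 counts, and reads without molecular identifiers are not independent molecules. Values of some single genes are not reported here.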

Additional observations from a re-analysis of the deposited data

Results flagged for a closer look

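In 8 of 134 groups of 5 libraries tested, 1 library lay far from the other 4, where chance gives about 1 in 20. For GGT6, M1 replicate 5 was low at 20.9 CPM, with the others at 27.7 to 29.5 CPM. For SFRP4, M1 replicate 3 was low at 3.78 CPM, with the others at 38.6 to 54.2 CPM. For ZDHHC5, M4 replicate 2 was low at 42.7 CPM, with the others at 50.3 to 53.5 CPM. Summed fibrillar matrix genes were low in M4 replicate 1, at 2741 CPM against 3880 to 4369 CPM, and high in M1 replicate 2, at 5916 CPM against 3998 to 4346 CPM. Summed genes of the IL-1, IL-36 and IL-6 families were low in M4 replicate 1, at 983.6 CPM against 1469 to 1699 CPM. Summed interferon response genes were high in M4 replicate 3, at 1456 CPM against 138.6 to 203.2 CPM, and in M1 replicate 4, at 417.6 CPM against 150.1 to 189.4 CPM.

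Genes listed for 1 stage only lie outside the comparison. The authors' deposited tables call 23 of the 103 genes listed for M4 alone, and 53 of the 325 listed for M1 alone, higher than M0.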

How the results depend on the processing

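The main fit gave 27 higher genes, 20 lower genes and 3 cornified envelope genes higher. In that order the counts were 11, 11 and 1 with no filter on low counts, 392, 192 and 10 with M4, M1 and M0 fitted together, 365, 180 and 8 with all 29 libraries, 8, 7 and 0 with the robust fit, 0, 0 and 0 with limma-voom (1956 genes at an unadjusted p under 0.05) and 449, 241 and 13 with DESeq2. Leaving out 1 library gave 0 to 344 higher, 0 to 149 lower and 0 to 12 cornified envelope genes. With the replicate number as a block the counts were 2, 1 and 0. No label says whether the numbers pair the libraries. Deviations of same-numbered libraries correlated at -0.263 to 0.128, with 1 of 5 pairs over 0.1. Of 10 libraries, 2 correlated best with their own number. With 5 pairs these values cannot settle whether libraries are paired. Both other scalings and the stricter filter left these counts within 1.5 times. For the 28 named genes under 20 alternatives, 559 values kept their direction, 258 inside and 301 outside the threshold. These genes were chosen for their calls in the same libraries, so the kept direction is no separate evidence. Most adjusted p-values lie just under the threshold, so which genes pass depends on these settings more than the direction does; the cause was not tested. With 3378012 to 5037501 counts per library, 1953 of 10730 genes did not pass the filter on low counts.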

Other observations

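Heat shock and chaperone genes had a median log2 fold change of -0.08 over 19 tested, and none was called between the 2 stages. The mitochondrial chaperonins HSPD1 and HSPE1 gave -0.86 ± 0.24 and -0.81 ± 0.20, the endoplasmic reticulum chaperone HSP90B1 gave -0.67 ± 0.17, and the small heat shock protein HSPB8 gave 1.31 ± 0.39. In the fit of all 29 libraries these 4 were called, 1 higher and 3 lower of 19 members tested. In that fit 3.52% of all genes were called higher and 1.74% lower. Genes of cholesterol synthesis had a median of 0.26, with 18 of 21 positive, led by IDI1 at 0.75 ± 0.17 and INSIG1, a regulator of the pathway, at 0.92 ± 0.29. Neither was called between the 2 stages. IDI1 was the 1 of 21 members called higher in the fit of all 29 libraries, where 3.52% of all genes were.

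Several inflammatory genes are listed for M1 alone. The CPM of genes listed for 1 stage only is given without the TMM factor, so it is not on the scale of the other levels. IL6 had 122, 30.5, 14.8, 20.4 and 185 CPM in M1 libraries and a mean of 0.134 CPM in M0, and the authors' deposited table gives an adjusted p of 0.000488. The neutrophil chemokine CXCL5 had 68.9, 82.1, 39.2, 12.4 and 74.7 CPM in M1 (adjusted p of 1.83e-05 in the authors' deposited table). The neutrophil receptors CSF3R and CXCR1 had 2.32 to 17.4 CPM and 1.48 to 21.1 CPM, and the collagenase MMP1 had 7.1 to 150 CPM. Listed for M4 alone were KRT9, the keratin of palm and sole skin in humans, with 24.4, 1.64, 4.8, 105 and 67 CPM in M4 against a mean of 0.325 CPM in M0, and the water channel AQP5, with 32, 6.84, 45.1, 24.6 and 35.9 CPM in M4 against 0.0892 CPM in M0. The authors' deposited table gives adjusted p-values of 0.00349 for KRT9 and 8.96e-06 for AQP5. No fold change between the stages can be given for these genes.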
